A study of Drosophila melanogaster with 2 samples.

Results

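The genes described here are 10 components and readouts of the Decapentaplegic (Dpp) pathway, the Drosophila branch of bone morphogenetic protein (BMP) signaling. They were taken from the deposited expression table by symbol: dpp, gbb, tkv, sax, put, Mad, Med, Dad, brk and salm. All 10 were found among the 13989 genes of the table, and all 10 had an FPKM (fragments per kilobase of transcript, scaled to the depth of the library) of at least 1. RNA was sequenced from wing discs, the sacs of larval epithelium that give rise to the adult wings and notum, dissected from wandering-stage Drosophila melanogaster larvae sorted for fluorescence. In the GFP genotype the engrailed driver (en), active in the posterior compartment, expressed green fluorescent protein alone. In the GFP_Tai genotype the same driver expressed GFP together with Taiman (Tai), a coactivator of the ecdysone receptor. Each genotype was 1 sample, called a library here, from a pool of 80 to 100 discs. Each value thus averages whole discs, including anterior cells outside the driver's domain. The series design mentions triplicates, but 1 value per gene and genotype was analysed here. How any replicates entered that value is not stated. No difference below has a replicate check, and the only tests of the genotypes are those in the authors' deposited table. Lower levels per cell and fewer expressing cells cannot be told apart in such pools.

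In this pathway the ligands Dpp and Glass bottom boat (Gbb) bind a complex of type I and type II receptor kinases. The receptors phosphorylate the transcription factor Mad, which enters the nucleus with Medea and represses the brinker gene, lifting repression from growth and patterning genes. In the wing disc Dpp is made in a stripe of anterior cells along the compartment boundary, in response to Hedgehog from the posterior cells, and spreads to both sides to pattern and enlarge the wing.

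The 10 genes had nearly the same levels in discs with and without Tai expressed by the driver. In GFP_Tai 7 of them had slightly higher values and 3 slightly lower ones, and 0 of 10 reached a 2-fold or a 1.5-fold difference. On the log2(FPKM + 1) scale, where 1 is added before taking logarithms and the difference is GFP_Tai minus GFP, the 10 lay between -0.18 (gbb) and 0.17 (Dad), with a median of 0.08. The 2-fold threshold was passed upward by 6.31% and downward by 1.81% of the 8275 genes that reached an FPKM of 1 in a library. At 1.5-fold the shares were 9.82% and 3.93%. Against this background 0 of 10 is close to what the table as a whole shows, since most genes lay near equal values. Beside the 7 of 10 members with higher values in GFP_Tai, 46.2% of all genes were higher there. The split of the members by direction was not tested against that share. All genes had a median log2 difference of -0.02 and quartiles at -0.19 and 0.18, and 48.9% of them lay within the widest difference of the 10. Among the 4257 genes whose mean FPKM fell in the range spanned by the 10, that share was 55.3%. In the authors' deposited table all 10 genes were tested and 0 were called, with p from 0.5059 to 0.9879, where 11 of 8374 tested genes were called (0.131%).

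**Figure D1:**
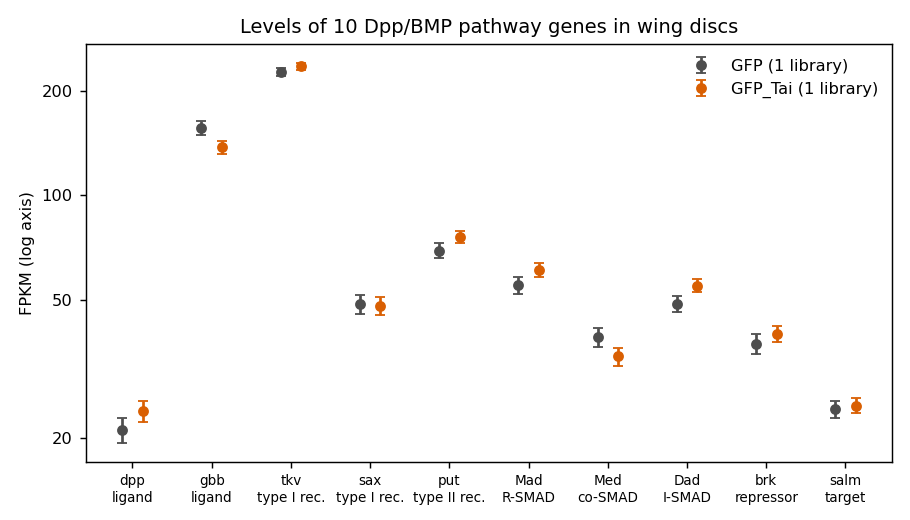
FPKM (log axis) of the 10 Dpp/BMP pathway genes, ordered by role, in the GFP library (grey) and the GFP_Tai library (orange). Points are the single deposited values and bars are 95% counting intervals; the paired points lie close together for every gene, from about 21.1 for dpp to 235 for tkv.

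The ligands came first in the pathway and had opposite signs. The dpp gene (FBgn0000490, 2L:2428372-2459823 in BDGP6, plus strand, 4 annotated transcripts from 4 start sites) stood at 21.1 FPKM in discs with GFP alone and at 23.9 FPKM in discs with Tai. The plain ratio of GFP_Tai to GFP was 1.13. Its 95% counting interval ran from 1.02 to 1.26, at about 578 fragments in GFP and 855 in GFP_Tai by estimate. These intervals come from the exact binomial split of the estimated fragments and cover counting error only, not the spread between pools of discs. The gbb gene (FBgn0024234, 2R:23851562-23853247, plus strand), whose product forms a second BMP ligand, was lower, with 156 and 137 FPKM and a ratio of 0.88 (interval 0.83 to 0.94). The gbb transcript was the more abundant of the pair in both libraries by FPKM, which is scaled to the length of the transcript.

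The receptor genes covered a wide range of levels and small differences. The type I receptor gene tkv (thickveins, FBgn0003716, 2L:5219000-5271384, minus strand) was the most abundant of the 10, with 226 FPKM in GFP and 235 in GFP_Tai. The ratio of tkv was 1.04, and its counting interval (1.002 to 1.08) lay just above equal values. The other type I receptor gene, sax (saxophone, FBgn0003317, 2R:7806484-7810067, plus strand), had 48.5 and 48.0 FPKM, a ratio of 0.99 (interval 0.91 to 1.08). The log2 difference of sax was -0.01 and changed sign, to 0.01 and 0.02, when the libraries were rescaled to a common median difference or a common upper quartile. The type II receptor gene put (punt, FBgn0003169, 3R:14619030-14625703, minus strand) had 69.3 and 75.8 FPKM, a ratio of 1.09 (interval 1.03 to 1.17). The receptor genes thus differed by less than 1.5-fold between the libraries, and sax was level.

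The SMAD genes encode the factors that carry the signal into the nucleus, and the activating pair differed in sign. Mad (FBgn0011648, 2L:3146056-3159643, minus strand), the substrate of the receptors, had 55.1 and 60.8 FPKM, a ratio of 1.10 (interval 1.03 to 1.19). Med (Medea, FBgn0288966, 3R:31611046-31615375, plus strand), the partner shared with the Activin branch, had 39.0 and 34.4 FPKM, a ratio of 0.88 (interval 0.81 to 0.96). The Med value carries an added uncertainty. Its exons share 331 of 3425 bases (9.66%) with CycG on the opposite strand, which had 242 and 250 FPKM, and no label says whether counting used strand. The part of CycG fragments in the Med values was not tested. Among other members, tkv shared 158 of 4433 exonic bases (3.56%) with the pseudogene CR14033 on the opposite strand. The deposited loci of brk and tkv held 14 and 5 genes, and any effect on their values was not tested.

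The remaining 3 genes are transcriptional readouts of Mad activity. Dad (Daughters against dpp, FBgn0020493, 3R:17054007-17070408, plus strand), the inhibitory SMAD that Dpp signaling induces as negative feedback, had 48.6 FPKM in GFP and 55.0 in GFP_Tai. Its ratio was 1.13 (interval 1.06 to 1.21), the same size as that of dpp. The brk gene (brinker, FBgn0024250, X:7307939-7311132, plus strand), a repressor that Dpp signaling switches off, had 37.2 and 39.9 FPKM, a ratio of 1.07 (interval 0.98 to 1.17). The salm gene (spalt major, FBgn0261648, 2L:11434311-11445614, minus strand), a zinc finger factor of the central wing that is expressed where Brinker is low, had 24.2 and 24.8 FPKM, a ratio of 1.03 (interval 0.95 to 1.11). All 3 readouts, the induced Dad and salm as well as the repressed brk, had values above 1 for the ratio, and only the interval of Dad lay clear of equal values.

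**Figure D2:**
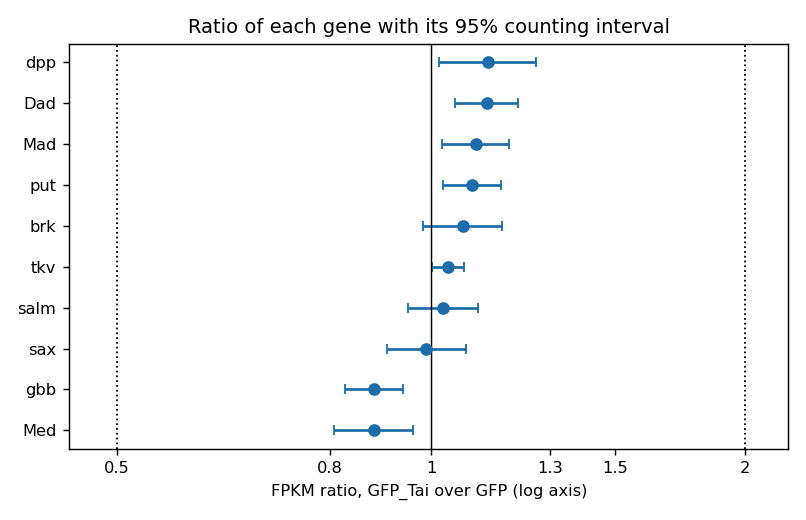
Ratio of the GFP_Tai to the GFP FPKM (log axis) for each of the 10 genes, sorted, with its 95% counting interval; the solid line marks equal values and the dotted lines a 2-fold difference. All intervals together span 0.81 to 1.26, far inside the dotted lines.

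Counting error was small next to a 2-fold difference for these genes, since they rested on an estimated 578 to 7240 fragments in a library. The intervals of dpp, tkv, put, Mad and Dad lay above 1, those of gbb and Med lay below 1, and those of sax, brk and salm included 1. The tkv interval no longer excluded 1 when its shortest transcript length was used. No interval reached below 0.81 or above 1.26. The share of all genes whose interval excludes 1 was not computed. Such splits of intervals, here and in the wider lists below, therefore have no background beside them.

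The order of the levels was almost the same in both libraries. In GFP it ran tkv, gbb, put, Mad, Dad, sax, Med, brk, salm and dpp. In GFP_Tai only Med and brk exchanged places. Neighbours in the order were separated by more than their counting intervals except Dad and sax (48.6 and 48.5 FPKM), Med and brk (39.0 and 37.2) and salm and dpp (24.2 and 21.1) in GFP. In GFP_Tai, salm and dpp (24.8 and 23.9) alone overlapped. Against all genes above the minimum, 8 of the 10 lay above the median level in each library (25.0 FPKM in GFP and 25.3 in GFP_Tai), so these are transcripts of middle to high abundance in the disc.

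Proportions between members within a library do not depend on how the libraries were scaled to each other, and 6 such pairs were compared. Of the 6, the ligand pair gave the largest departure. The level of gbb was 7.40 times that of dpp in GFP and 5.75 times in GFP_Tai, a change of 0.78-fold (95% counting interval 0.69 to 0.88). The Mad to Med proportion went from 1.41 to 1.77, a change of 1.25-fold (interval 1.12 to 1.40), subject to the overlap of Med with CycG. The other proportions changed by less than their counting error. The tkv to sax proportion was 4.66 and 4.89 (change 1.05, interval 0.96 to 1.15), and tkv to put was 3.26 and 3.10 (change 0.95, interval 0.88 to 1.02). The proportion of the induced Dad to the repressed brk stood at 1.31 and 1.38 (change 1.05, interval 0.95 to 1.18). The proportion of salm to brk was 0.65 and 0.62 (change 0.96, interval 0.85 to 1.07). The pairs were chosen with results of these data known, and the intervals were not adjusted for their number.

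**Figure D3:**
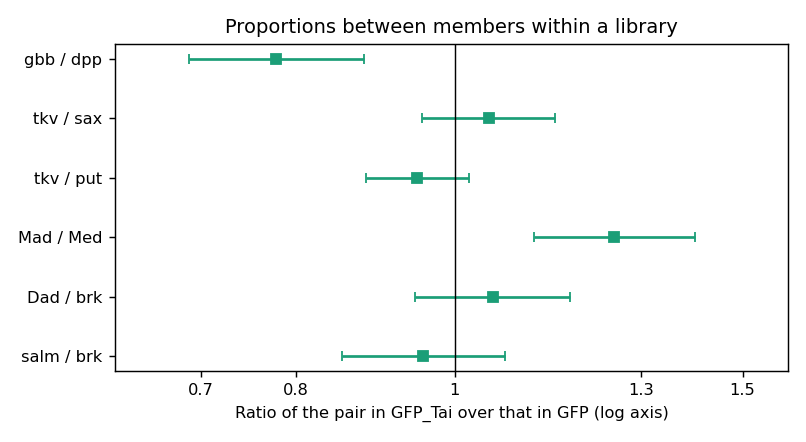
Change in the proportion between paired members, as the proportion in GFP_Tai over that in GFP (log axis), with 95% counting intervals; the line marks no change. The gbb to dpp pair (0.78) lies below the line and the Mad to Med pair (1.25) above it, and the intervals of the other pairs include it.

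A wider list of 48 genes of the pathway and of the related Activin branch gave 1 gene past either threshold. All 48 were found in the table, and 44 were above the minimum. Past 2-fold there was 1 gene upward and 0 downward among these 44, against 6.31% and 1.81% of all genes, and the median log2 difference was 0.02. The exception was daw (dawdle), an Activin-type ligand that signals through the type I receptor Baboon and the transcription factor Smox. It stood at 4.63 FPKM in GFP and 16.3 in GFP_Tai, 3.53 times as high (interval 2.84 to 4.44; 99 and 457 estimated fragments). In the authors' deposited table daw had p = 0.39755 and was not called. The levels of daw in both libraries were below those of every member. The receptor gene babo had 42.0 and 46.8 FPKM, and Smox had 48.7 and 51.2, so neither approached the difference seen for their ligand. The other TGF-beta family ligand genes above the minimum, mav (maverick) with 87.4 and 109 FPKM and myo (listed as myoglianin) with 39.4 and 48.6, were higher by 0.32 and 0.30 on the log2 scale. For the BMP ligand gene scw and the Activin gene Actbeta the table lists 0 in GFP, beside 0.0789 and 0.109 FPKM in GFP_Tai.

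**Figure D4:**
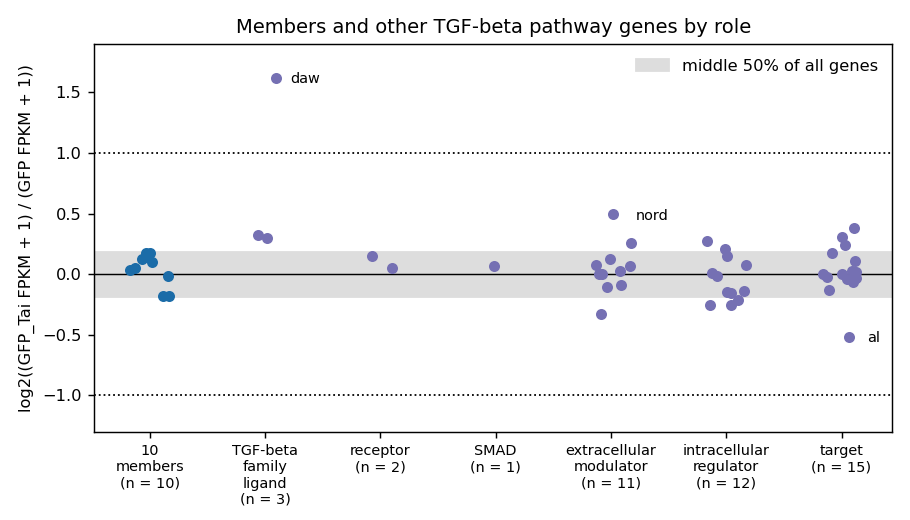
Log2 difference of FPKM + 1, GFP_Tai minus GFP, for the 10 members and for the 44 other pathway genes above the minimum, by role; each point is a gene, the grey band holds the middle 50% of all genes and the dotted lines mark 2-fold. Only daw (1.62) lies beyond a dotted line, and al (-0.52) and nord (0.49) are the next most distant.

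Genes that shape the Dpp gradient outside the cell had differences below 1.5-fold. The glypican gene dally, whose product holds Dpp at the cell surface, had 95.8 and 105 FPKM, a ratio of 1.09 (interval 1.04 to 1.14). The other glypican gene, dlp, named after its values were seen, had 50.3 and 60.2 FPKM, a ratio of 1.20 (interval 1.12 to 1.28). The gene magu (pentagone), a secreted factor that widens the gradient and is itself repressed by Dpp signaling, had 81.8 and 82.1 FPKM, a ratio of 1.00 (interval 0.94 to 1.07). Of the 11 extracellular modulators above the minimum, 0 passed 1.5-fold, against 9.82% of all genes upward and 3.93% downward. In a list this short, 0 is close to those shares. The median log2 difference of the 11 was 0.03. Counting intervals lay above equal values for 3 of them, below for 1 and included them for 7. The largest differences among them, named after their values were seen, were those of nord, with 18.2 and 26.1 FPKM, and of the protease gene tok (tolkin), with 103 and 81.5.

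Targets of the pathway differed by less than 1.5-fold, in both directions. The spalt-related gene salr, neighbour and paralog of salm, had 44.4 FPKM in GFP and 44.3 in GFP_Tai. The T-box gene bi (optomotor-blind), which responds to Dpp over a wide part of the wing, had 31.3 and 30.4 FPKM, and the wing selector gene vg had 44.0 and 42.9. The counting intervals of these 3 targets included equal values, at 0.94 to 1.07 for salr, 0.90 to 1.05 for bi and 0.90 to 1.05 for vg. The gene shn (schnurri), the partner that Mad and Medea need to repress brk, had 20.2 and 19.9 FPKM. Of all 15 targets on the list, 4 had intervals above equal values, 2 below and 9 included them. At the larger threshold, 0 of the 15 passed 1.5-fold in either direction, against 9.82% of all genes upward and 3.93% downward. The median log2 difference of the 15 was 0.00. The ends of the range were named after their values were seen. The lowest was al (aristaless), a homeobox gene, with 57.5 and 39.9 FPKM and a ratio of 0.69 (interval 0.62 to 0.77). The highest was Ltl (larval translucida, listed as CG32372), with 26.5 and 34.8 FPKM and a ratio of 1.31 (interval 1.20 to 1.43), and next came tup (tailup) at 1.26 (interval 1.07 to 1.49). Among 12 intracellular regulators, 0 passed 1.5-fold, beside the same shares of all genes. In lists this short, 0 is not far from those shares. The median of the 12 was -0.08, with 2 intervals above equal values, 5 below and 5 including them. The corepressor genes CtBP and gro, also named after their values were seen, were lower in GFP_Tai. CtBP had 334 and 279 FPKM (ratio 0.84, interval 0.81 to 0.86), and gro had 109 and 90.9 (ratio 0.84, interval 0.79 to 0.88).

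The compartment genes that lie upstream of dpp were set beside it. The Hedgehog ligand gene hh, expressed in the posterior cells that carry the driver, had 39.8 and 52.2 FPKM, a ratio of 1.31 (interval 1.19 to 1.44). The anterior gene ci, which encodes the transcription factor that responds to Hedgehog, had 128 and 126 FPKM. The Hedgehog receptor gene ptc, expressed along the boundary like dpp, had 54.0 and 47.0 FPKM, a ratio of 0.87 (interval 0.82 to 0.92). The intervals of ptc and dpp, both induced by Hedgehog in anterior boundary cells, did not overlap and lay on opposite sides of 1. These intervals cover counting error only, and a part of Hedgehog signaling in either value was not tested. In the posterior compartment, en had 43.2 and 46.8 FPKM and inv had 39.0 and 53.2.

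The libraries carried the labelled genotype and tissue. The tai gene had 27.1 FPKM in GFP and 879 in GFP_Tai, and the depth was estimated at 8129087 and 10621616 fragments. The wing disc markers nub, vg, ap, sd and rn were detected at 34.8 to 112 FPKM in GFP and 25.6 to 108 in GFP_Tai. Of these 5, 0 passed 1.5-fold, against 9.82% of all genes upward and 3.93% downward. All 5 had lower values with Tai (median -0.11 on the log2 scale), and the lowest ratios were those of rn, 0.74 (interval 0.68 to 0.80), and nub, 0.84 (interval 0.79 to 0.89). Summed FPKM over 5 markers each was 72.3 and 65.0 for myoblasts, 5.75 and 12.0 for blood cells and 18.7 and 29.2 for fat body. On the log2(FPKM + 1) scale 0 myoblast, 1 blood cell and 1 fat body marker passed 2-fold, the latter 2 upward. Among all genes 6.31% passed it upward and 1.81% downward. That scale understates such low values. By plain ratio the blood cell markers NimC1 (6.79) and srp (2.33) and the fat body markers Lsp1beta (4.05) and Lsp1alpha (2.16) were past 2-fold. All 5 blood cell and all 5 fat body markers had higher values in GFP_Tai, with 4 intervals above 1 in each list. Of the myoblast markers 1 was higher and 4 were lower. The tracheal list summed to 466 and 1334, from the cuticle-modifying genes Gasp, serp and verm, while the tracheal regulators trh (21.3 and 20.2 FPKM) and btl (3.47 and 3.45) were level. The 4 neuronal markers found summed to 9.70 and 8.50 FPKM, and only 1 of them, elav, was above the minimum. The lower sum came from elav, with 9.32 and 7.19 FPKM, a ratio of 0.77 (interval 0.66 to 0.90). Below the minimum, Syt1, brp and fne all had higher values in GFP_Tai. The ratio of Syt1 was 3.63 (interval 1.85 to 8.9) and that of brp 1.5 (interval 0.62 to 4.13). For fne the values were 0 in GFP and 0.191 FPKM in GFP_Tai. The part of these tissues, and of the lower disc markers, in the values of the Dpp/BMP genes was not tested.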

How the data were processed

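Whole wing discs of 2 genotypes, GFP and GFP_Tai, were compared, with 1 library each. Per the submitters' processing notes, CASAVA 1.4, TopHat2 2.0.12, Cuffdiff 2.2.1 and the build dm6 were used, with no roles given. The authors deposited a single FPKM per gene for each genotype, laid out as Cuffdiff output (named RPKM by them), and, per the file headers, a p-value and q-value per gene. Loci in that table did not lie on dm6 (median shift 4112494 bp on 2R), so coordinates and transcript lengths came from the BDGP6 annotation (Ensembl release 115) by symbol.

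Differences were log2((GFP_Tai FPKM + 1) / (GFP FPKM + 1)), which understates low genes, over genes reaching an FPKM of 1 in a library. With 1 library per genotype no test was made. Depth was estimated from low values. Among genes above 0 in both, 304 shared the ratio 0.765, taken as equal fragments. Of 139 single-transcript genes among them, 39 gave 1 common step with 215 nt taken off the length. Fragments used the mean transcript length and served 95% counting intervals only: Clopper-Pearson for ratios, Poisson for levels, and a normal approximation on the log scale for proportions. The depth estimate and the intervals of ratios, but not the other intervals, were tested on simulated data with 1 length per gene. There the ratio intervals used the known fragment counts. The step from FPKM and mean transcript length to fragments was thus not tested for them. Python 3.11.15, NumPy 2.4.6, pandas 2.3.3 and SciPy 1.17.1 were used.

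The members and lists were chosen with earlier results of these data known. Named were the members, tai, the compartment genes, pathway genes past 1.5-fold, and salr, bi, vg, shn, dally, magu, babo and Smox; other names complete a short list or are marked as picked afterwards.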

Additional observations from a re-analysis of the deposited data

How the results depend on the processing

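Pseudocounts of 0.1 and 5, centring on the median of all genes, upper-quartile scaling, other minimums, other fold thresholds and other transcript lengths were tried, as planned. Among 38 results these gave 136 further values, of which 129 lay within the limits set and 7 did not. The count of members past the threshold was 0 in each direction in every setting tried, and that of the wider pathway list was 1 higher and 0 lower. The member count had little room to move, since the widest member difference as reported was 0.18 on the log2 scale. The sign of the difference was kept by 9 of the 10 members in the settings tried, sax being the exception. Counts over all genes moved by construction. With 5 as pseudocount, 284 genes were past 2-fold upward and 97 downward, against 522 and 150 as reported. A threshold of 1.5-fold gave 813 and 325, and one of 3-fold gave 324 and 87. The counting interval of tkv excluded equal values (lower bound 1.002) with its mean transcript length and did not with its shortest. No paired analysis was possible because each genotype had 1 library. For the same reason no replicate could be left out. Counting error is only part of the error, and the spread between pools of discs was not measured.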
